A study of Mus musculus with 24 samples.

Results

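Tdpoz1 to Tdpoz5 and Usp17la to Usp17le, 10 members of 2 multicopy gene families, were followed through early cleavage in control and MERVL-KD mouse embryos. They were chosen by name, as members of families active at the 2-cell stage, and are 10 of the 55291 gene rows in the RNA count files. The values of each were taken from all 12 RNA libraries. The male pronucleus of B6D2F1 zygotes was injected with antisense oligonucleotides (ASOs), synthetic strands that bind a complementary RNA and cause it to be cut, at 20 µM. MERVL-KD embryos received a mixture of 3 ASOs against the endogenous retrovirus MERVL, and control embryos received a scrambled ASO. Each library was made from 30 zona-free embryos, and each of the 6 groups (control or MERVL-KD, at the 2-cell, 4-cell or 8-cell stage) held 2 biological replicates. A sample label names the strain BDF2, while the growth protocol names B6D2F1, and the labels put the 2-cell libraries at 1.5 dpc and both the 4-cell and the 8-cell libraries at 2.5 dpc.

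Tdpoz genes encode proteins with a MATH domain, which binds substrates, and a BTB/POZ domain, which binds the ubiquitin ligase scaffold CUL3. They are relatives of Spop, the best studied adaptor of this kind, and lie in a cluster of oocyte and early embryo genes. Usp17l genes, also known as the DUB family, encode deubiquitinating enzymes, which remove ubiquitin from proteins. Their first known members were found as genes that cytokines induce in blood cells. Both families have expanded in rodents and are known among the transcripts that accumulate when the embryonic genome is activated.

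The 5 Tdpoz members lie on chromosome 3 of GRCm38, the build of the counts. Tdpoz2 is at chr3:93651542-93652686, Tdpoz1 at chr3:93669333-93676310 and Tdpoz5 at chr3:93960292-93961314, all on the minus strand. Tdpoz4 at chr3:93796398-93797510 and Tdpoz3 at chr3:93826020-93827117 are on the plus strand. The 5 Usp17l members lie on chromosome 7, with Usp17ld at chr7:103249737-103252505 (minus), Usp17lc at chr7:103415072-103419880 (plus), Usp17le at chr7:104768049-104777470 (minus), Usp17lb at chr7:104840257-104842603 (minus) and Usp17la at chr7:104857009-104862667 (plus). No exon of a member shared a base with an exon of another gene.

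Members of a family are alike in sequence, and this limits what a read can tell about them. Coding sequences of Tdpoz pairs were 77.4% to 88.1% identical, with a median of 83.2%, and Tdpoz4 was in the 4 least alike pairs. Those of Usp17l pairs were 90.8% to 98.4% identical, with a median of 93.5%, and Usp17lc and Usp17ld formed the closest pair. The same 60 bases of each coding sequence are shown for the Tdpoz members, read 5′ to 3′ on the coding strand, with capitals at bases that differ from the most common base at that position in the family. The stretches come from the plus strand for Tdpoz3 and Tdpoz4 and from the minus strand for the others. They were chosen as the gap-free 60 positions that vary most among the members (42 of 60). They therefore overstate the differences over the whole coding sequence.
Tdpoz1 (chr3:93671120-93671179): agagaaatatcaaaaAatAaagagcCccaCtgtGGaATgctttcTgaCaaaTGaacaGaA
Tdpoz2 (chr3:93652308-93652367): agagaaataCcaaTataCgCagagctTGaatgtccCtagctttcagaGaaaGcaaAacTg
Tdpoz3 (chr3:93826316-93826375): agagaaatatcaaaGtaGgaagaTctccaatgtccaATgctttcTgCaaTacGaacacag
Tdpoz4 (chr3:93796694-93796753): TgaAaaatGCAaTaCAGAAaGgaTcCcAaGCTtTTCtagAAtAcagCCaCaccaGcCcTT
Tdpoz5 (chr3:93960959-93961018): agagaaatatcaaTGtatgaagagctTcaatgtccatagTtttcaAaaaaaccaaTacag
In this stretch Tdpoz4 carried 31 capitals against 6 to 14 in the other members.

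The same kind of stretch in the Usp17l members, again the one that varies most (20 of 60 positions), shows a family with far fewer differences, in which Usp17lb stood apart.
Usp17la (chr7:104861533-104861592): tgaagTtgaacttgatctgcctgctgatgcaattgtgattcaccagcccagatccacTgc
Usp17lb (chr7:104840319-104840378): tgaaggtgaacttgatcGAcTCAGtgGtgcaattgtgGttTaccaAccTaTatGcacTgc
Usp17lc (chr7:103418900-103418959): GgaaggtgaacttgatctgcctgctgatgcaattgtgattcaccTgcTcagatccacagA
Usp17ld (chr7:103250264-103250323): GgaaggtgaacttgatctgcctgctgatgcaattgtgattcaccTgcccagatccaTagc
Usp17le (chr7:104768429-104768488): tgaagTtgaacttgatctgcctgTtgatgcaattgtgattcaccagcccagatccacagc
Usp17lb carried 14 capitals here and the other members 2 to 4. Over the whole coding sequence 13.9% of the gap-free positions varied among the Usp17l members, against 36.1% among the Tdpoz members.

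The authors kept uniquely aligned reads, so a member is counted only where a read can be told from its copies. Of all windows of 150 bases in the exons of a member, the share found once in the genome was 99.1% for Usp17le, 98.3% for Usp17la, 97.5% for Usp17lb, 93.5% for Tdpoz4, 91.2% for Tdpoz2 and 88.0% for Tdpoz1. It was lower for Usp17lc at 71.2%, Tdpoz3 at 66.6% and Usp17ld at 64.9%. Tdpoz5 had 0 such windows of 874, and its counts of 13 to 53 per library cannot be taken as its level.

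**Figure D1:**
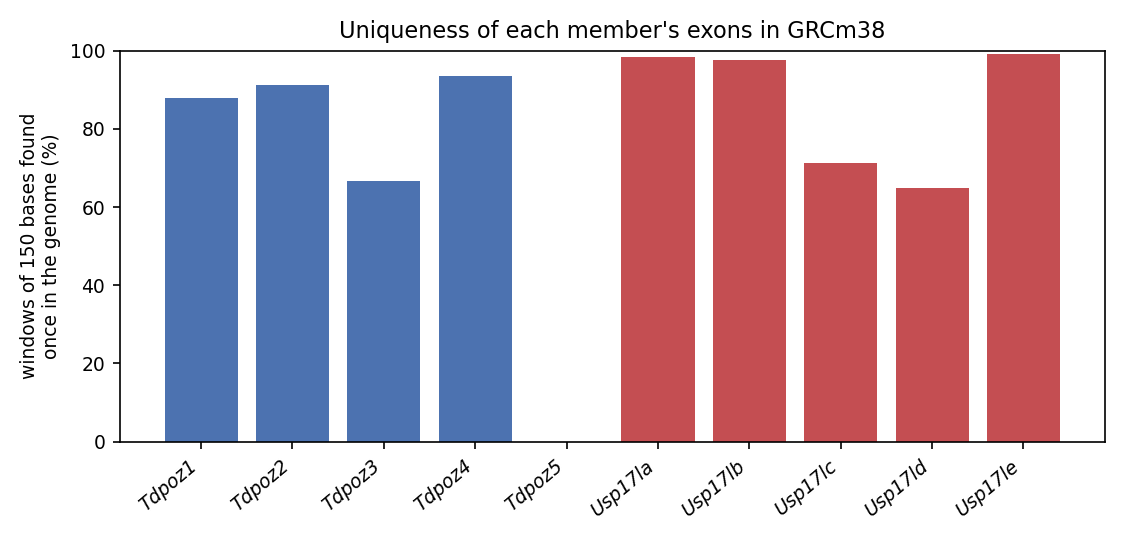
Bars give the percentage of 150-base exon windows of each member that occur once in GRCm38, on an axis from 0 to 100% (blue, Tdpoz; red, Usp17l). Tdpoz5 has no bar because 0 of its windows occur once, and Usp17ld, Tdpoz3 and Usp17lc are the lowest of the others.

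The promoters that RefSeq gives in GRCm38.p6 (250 bases before to 50 after the start) matched 7 of the 10 members. Promoters of Usp17la, Usp17lb, Usp17lc and Usp17ld were 91.7% to 96.8% identical in pairs over 215 to 278 aligned bases. TATAAA, searched on both strands, was found in Usp17lb, Usp17lc and Usp17ld, and 13.6% of 32851 promoters of the same length hold it. The promoters of Usp17lc and Usp17lb are shown because these were the Usp17l members with the highest control 2-cell levels, with TATAAA in capitals.
Usp17lc (chr7:103416446-103416745, plus strand): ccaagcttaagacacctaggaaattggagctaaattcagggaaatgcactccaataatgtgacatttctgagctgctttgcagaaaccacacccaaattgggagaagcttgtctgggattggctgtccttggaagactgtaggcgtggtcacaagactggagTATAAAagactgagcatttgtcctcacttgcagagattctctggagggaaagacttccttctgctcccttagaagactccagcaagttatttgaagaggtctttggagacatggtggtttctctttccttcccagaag
Usp17lb (chr7:104842534-104842833, minus strand): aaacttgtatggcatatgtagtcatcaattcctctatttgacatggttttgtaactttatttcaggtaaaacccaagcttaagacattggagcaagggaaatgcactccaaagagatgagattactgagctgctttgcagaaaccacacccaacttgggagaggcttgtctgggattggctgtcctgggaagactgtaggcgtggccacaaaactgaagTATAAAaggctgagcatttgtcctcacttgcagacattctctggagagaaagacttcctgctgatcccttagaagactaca
TATAAA began at -88 from the RefSeq start in Usp17lc and at -31 in Usp17lb. The Usp17lc promoter lies inside the span of the gene in the counts, chr7:103415072-103419880. The start of Usp17lc thus differs between the RefSeq promoter and the counts. These letters are a description of the sequence and not a measured binding site.

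Library totals ranged from 28167085 to 41482526 counts, and MERVL-int, the internal region of the target, took 1.07% to 6.57% of the counts of a control library and 0.0278% to 0.157% of those of a MERVL-KD library. All 9 markers of oocytes and early embryos were detected in every library, and their summed level was 1194 to 1981 CPM (counts scaled to the library size times its TMM factor). A list of 9 markers of cumulus and granulosa cells summed to 15.4 to 26.4 CPM, with 0 to 6 of them at 0 in a library, and 3 blood genes were near 0 apart from Hba-a1 at 5.52 CPM in MERVL-KD and 0.868 CPM in control 4-cell embryos, the 1 gene of these 3 lists called in MERVL-KD embryos at any stage by edgeR or DESeq2. At an unadjusted p under 0.05 in edgeR, the oocyte list held 7, 6 and 3 genes in 2-cell, 4-cell and 8-cell embryos, the cumulus list 0, 1 and 0 (of 3, 2 and 1 that could be tested) and the blood list 1, 1 and 0 (of 1, 1 and 2). Of all genes tested, 5556 of 20604, 4948 of 19738 and 3582 of 18414 had such a p in 2-cell, 4-cell and 8-cell embryos. In these pooled embryos, fewer transcribing cells and less RNA per cell cannot be told apart.

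At the control 2-cell stage, levels were compared between genes per length, as CPM per kb of exon. Usp17lc stood at 77.0 ± 5.8 CPM per kb (SD, n = 2), Tdpoz4 at 76.4 ± 6.3 and Usp17lb at 75.8 ± 5.4, and these 3 did not differ beyond their spread. Tdpoz3 (41.1 ± 7.3), Tdpoz2 (35.7 ± 0.54) and Tdpoz1 (33.6 ± 6.2) followed and also overlapped each other in their spread. Usp17ld stood at 20.6 ± 1.1 CPM per kb, above Usp17le at 12.7 ± 1.5 and Usp17la at 11.1 ± 2.8, which overlapped. Tdpoz5 was listed at 0.992 ± 0.081 CPM per kb, with the limit on its reads given above. For Usp17ld, Tdpoz3 and Usp17lc, in whose exons fewer reads can be placed, these levels leave out more sequence than for the other members apart from Tdpoz5.

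From the 2-cell to the 4-cell stage all 5 Usp17l members and the Tdpoz members Tdpoz1 and Tdpoz3 were called lower in control 4-cell than in control 2-cell embryos (a change of 2-fold or more with an adjusted p below 0.05), 7 of the 10 members, where 24.3% of all 24040 genes tested were called lower and 45.0% in either direction. Since the families were chosen as active at the 2-cell stage, a higher share than over all genes in part follows from the choice. Tdpoz4 and Tdpoz2 were not called, nor was Tdpoz5. The median log2 fold change was -4.24 over the Usp17l members and -0.88 over the Tdpoz members, against -0.06 over all genes tested. The Tdpoz median is the value of Tdpoz5, and without that gene, whose reads cannot be placed, it was -1.78 over 4 members.

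Usp17lc, a deubiquitinating enzyme gene, showed the largest of these changes. Its levels were 179 and 199 CPM in the control 2-cell libraries, 6.55 and 4.03 CPM in the control 4-cell libraries and 2.39 and 1.88 CPM in the control 8-cell libraries. The 2-cell libraries lay far above all others, and the log2 fold change at the 4-cell stage was -5.15 (SE 0.59, adjusted p = 0.000235), 35.4-fold lower.

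Usp17lb held 112 and 124 CPM in control 2-cell libraries, 10.2 and 2.15 CPM in control 4-cell libraries and 3.19 and 1.47 CPM in control 8-cell libraries. The 4-cell replicates differed from each other far more than the 2-cell replicates did, and the log2 fold change was -4.24 (SE 0.63, adjusted p = 0.00107). Usp17la stood at 34.7 and 24.2 CPM and then at 1.25 CPM in both control 4-cell libraries, a log2 fold change of -4.55 (SE 0.68, adjusted p = 0.000326). Usp17le went from 27.4 and 23.0 CPM to 2.13 and 0.834 CPM (log2 fold change -4.06, SE 0.45, adjusted p = 1.03e-06). Usp17ld went from 42.6 and 39.5 CPM to 5.16 and 1.32 CPM (log2 fold change -3.64, SE 0.72, adjusted p = 0.00344). In each of these 4 genes the groups did not overlap. The share of all genes without overlap is not given for this comparison, so no weight is put on that. For Usp17lb, Usp17lc, Usp17ld and Usp17le the first control 4-cell library was higher than the second.

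Among the Tdpoz adaptor genes, Tdpoz1 went from 68.7 and 89.3 CPM in control 2-cell libraries to 8.06 and 11.8 CPM in control 4-cell libraries (7.99-fold lower, SE of the log2 fold change 0.20, adjusted p = 6.06e-11). Tdpoz3 went from 50.8 and 39.5 CPM to 3.92 and 7.85 CPM (log2 fold change -2.95, SE 0.30, adjusted p = 2.59e-07). Both genes were lower in every 4-cell library than in every 2-cell library, and here too the share of all genes without overlap is not given.

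Tdpoz4, the member least like the others in sequence, showed no detectable change. It stood at 90.0 and 80.0 CPM in control 2-cell libraries, 84.0 and 88.0 CPM in control 4-cell libraries and 77.2 and 79.7 CPM in control 8-cell libraries. The 2-cell and 4-cell libraries overlapped, and the log2 fold change between them was 0.02 (SE 0.14, adjusted p = 0.933). Tdpoz2 stood at 40.5 and 41.3 CPM, then at 24.2 and 29.7 CPM and then at 39.1 and 32.0 CPM. Its 4-cell libraries were lower than both its 2-cell and its 8-cell libraries, with a log2 fold change of -0.60 from the 2-cell to the 4-cell stage (SE 0.19, adjusted p = 0.0102), short of 2-fold.

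**Figure D2:**
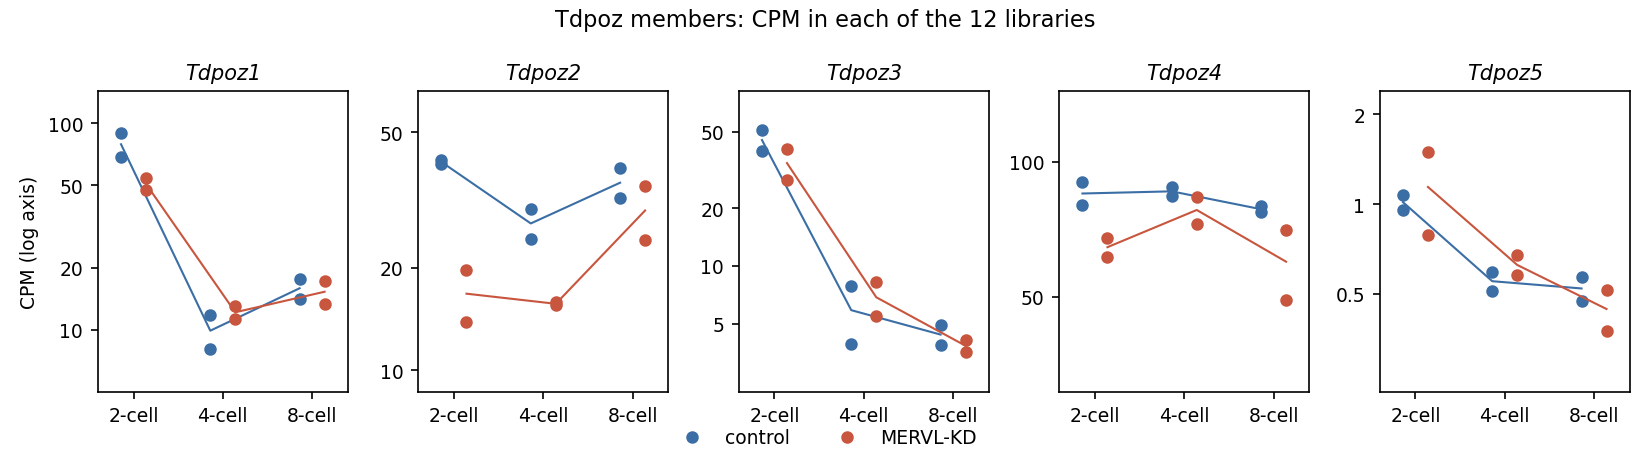
Each point is the CPM of a Tdpoz member in 1 library (log axis, a scale of its own per gene), by stage, for control (blue) and MERVL-KD (red) embryos, and lines join group means. Tdpoz1 and Tdpoz3 drop after the 2-cell stage, Tdpoz4 stays between 49.1 and 90.0 CPM, and Tdpoz2 is lower in MERVL-KD than in control at the 2-cell and 4-cell stages.

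**Figure D3:**
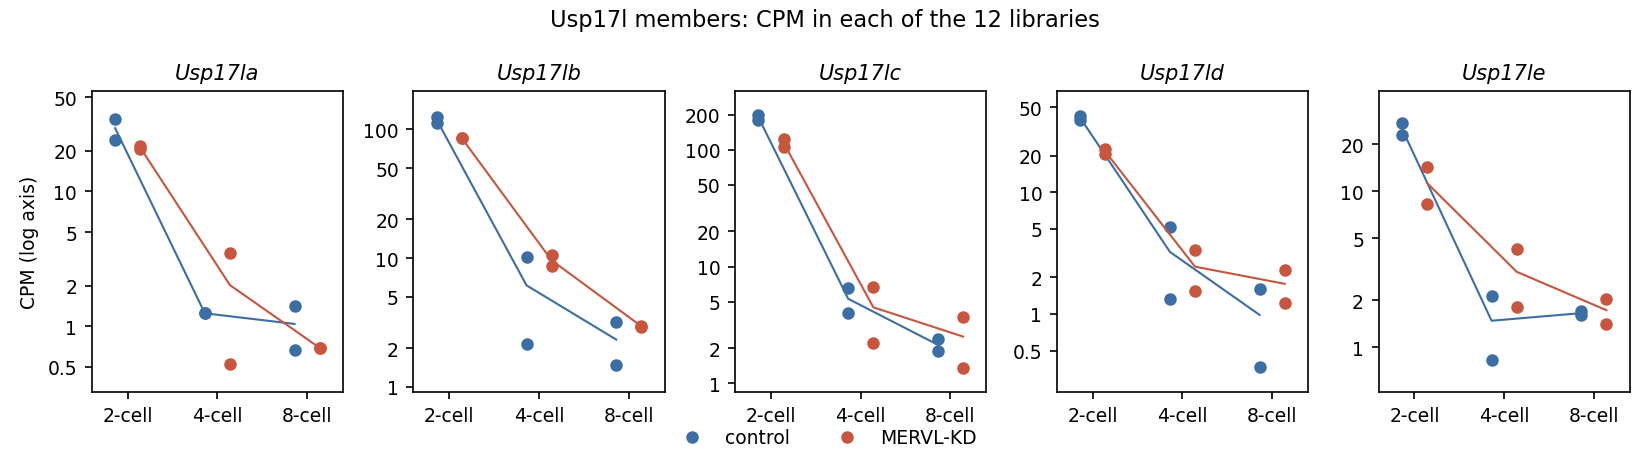
Each point is the CPM of a Usp17l member in 1 library (log axis, a scale of its own per gene), by stage, for control (blue) and MERVL-KD (red) embryos, and lines join group means. All 5 members are highest in the 2-cell libraries, and the 4-cell and 8-cell replicates are far apart for most members.

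The make-up of the 5 listed members of each family differed between the stages. The 4 other Tdpoz rows and the 1 other Usp17l row were left out of these sums and shares. Of these 4, Tdpoz8 was the highest in control 2-cell libraries, at 39.7 and 37.6 CPM per kb. In control 8-cell libraries it was Tdpoz6, at 22.0 and 24.2 CPM per kb. Tdpoz4 made up 40.7% of the level per length of the 5 Tdpoz members in control 2-cell embryos, 69.6% in control 4-cell embryos and 62.5% in control 8-cell embryos. Tdpoz1 and Tdpoz3 had shares of 17.9% and 21.9% at the control 2-cell stage and of 3.80% and 4.83% at the control 4-cell stage. Tdpoz2 made up 19.0%, 21.2% and 27.5% of the 5 members at the control 2-cell, 4-cell and 8-cell stages, and no test was made of the shares. The summed level of the 5 Usp17l members went from 403 ± 10.0 CPM in control 2-cell to 17.4 ± 11.1 CPM in control 4-cell embryos (SD, n = 2). Of the level per length of these 5, Usp17lc and Usp17lb made up 39.1% and 38.4% at the control 2-cell stage. At the control 4-cell stage their order turned between the replicates, with 20.1% for Usp17lc and 48.9% for Usp17lb in the first library and 35.9% and 30.1% in the second.

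**Figure D4:**
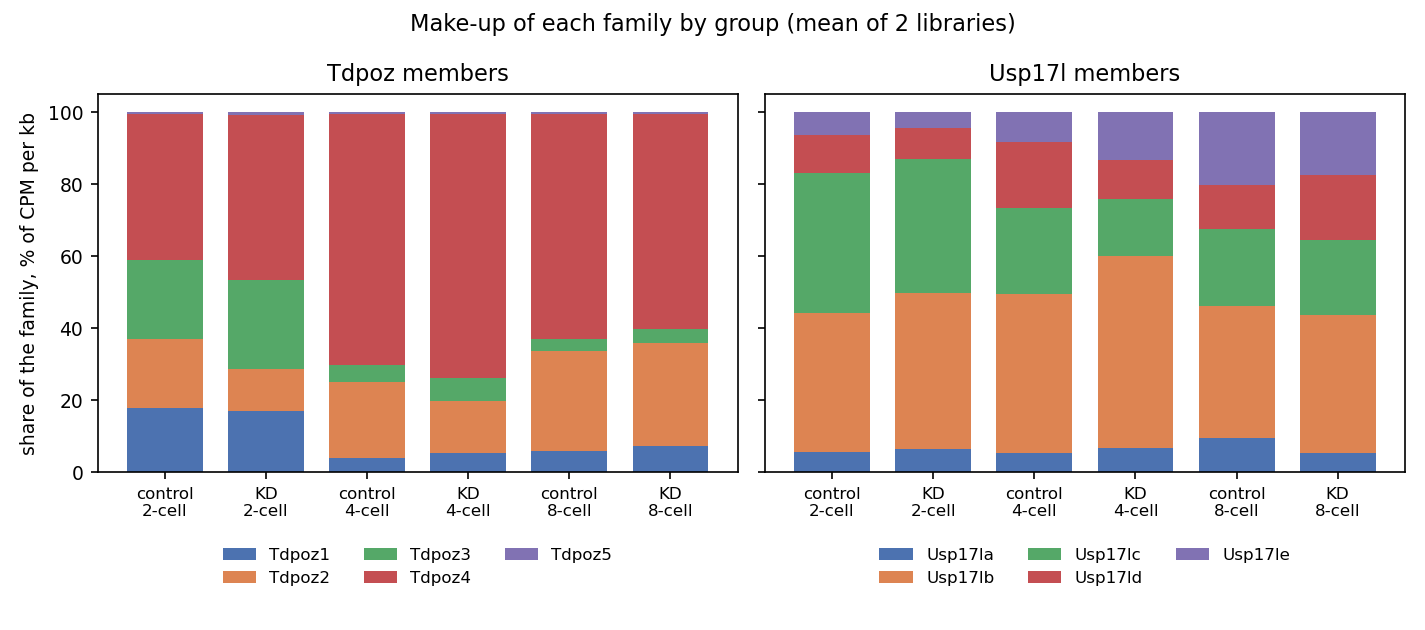
Stacked bars give each member's share (%) of its family's summed CPM per kb in each group, from the mean of 2 libraries. Tdpoz4 grows from 40.7% to 69.6% of the Tdpoz level between control 2-cell and 4-cell embryos, and Usp17lb and Usp17lc lead the Usp17l family at the 2-cell stage.

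From the 4-cell to the 8-cell stage, 0 of the 10 members were called in control embryos, where 1.56% of 24040 genes were called. Beside 4650 of the 24040 genes, 2 members had an unadjusted p under 0.05. Tdpoz1 was higher at the 8-cell stage, at 17.6 and 14.2 CPM, than at the 4-cell stage (log2 fold change 0.68, SE 0.20, adjusted p = 0.0439), short of 2-fold. Its adjusted p in edgeR was 0.161 with library size alone and 0.0654 in the fit of the 4 libraries compared. It was 0.0523 in the non-robust fit, 0.0537 with a replicate block and 0.0509 with repeat families left out. With single libraries left out the log2 fold change of Tdpoz1 ran from 0.43 to 0.98. MERVL-KD embryos also had 0 members called, with 1.64% of genes called and 4 members, beside 4385 of 24040 genes, at an unadjusted p under 0.05. Tdpoz2 was higher in MERVL-KD 8-cell than in MERVL-KD 4-cell embryos, at 34.8 and 24.1 CPM against 15.5 and 15.8 CPM. The edgeR log2 fold change was 0.91 (SE 0.19, adjusted p = 0.00931), short of 2-fold. With single libraries left out it ran from 0.63 to 1.18. DESeq2 also called 0 members from the 4-cell to the 8-cell stage in either group.

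In MERVL-KD embryos the 2-cell to 4-cell change called lower the same 7 members as in control embryos, which were Tdpoz1, Tdpoz3 and all 5 Usp17l members, where 23.0% of genes were called lower and 44.1% in either direction. Here too the share in part follows from the choice of the families. Usp17lc went from 106 and 123 CPM to 6.73 and 2.22 CPM (log2 fold change -4.67, SE 0.58, adjusted p = 0.000385). Usp17le went from 14.3 and 8.29 CPM to 4.28 and 1.81 CPM, the smallest of the Usp17l changes (log2 fold change -1.89, SE 0.41, adjusted p = 0.000983). The call of Usp17ld, at 20.7 and 22.6 CPM in 2-cell and 3.35 and 1.55 CPM in 4-cell embryos (log2 fold change -3.14, SE 0.72, adjusted p = 0.00733), was lost without the second 4-cell library (log2 fold change -2.73, adjusted p = 0.0716). Tdpoz4 was again not called, with 61.3 and 67.7 CPM at the 2-cell and 72.9 and 83.4 CPM at the 4-cell stage (log2 fold change 0.28, SE 0.14, adjusted p = 0.0992).

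The effect of MERVL knockdown was then compared stage by stage. At the 2-cell stage Tdpoz2 and Usp17le were called lower in MERVL-KD embryos, 2 of 10 members, where 2.24% of 20604 genes were called lower and 6.61% in either direction. Without the fold threshold 6 members were lower, which were also Usp17ld, Usp17lc, Tdpoz1 and Usp17lb, beside 7.39% of genes. The median over the 10 members was -0.47 on the log2 scale (-0.55 without Tdpoz5), and that over all genes was 0.01. The MERVL-KD libraries of 9 members had the lower mean, and in 8 members, where 33.7% of genes did so, they were lower without overlap.

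Tdpoz2, a MATH and BTB adaptor gene, was at 40.5 and 41.3 CPM in control and at 13.8 and 19.7 CPM in MERVL-KD embryos. Both MERVL-KD libraries lay well below both controls, with a log2 fold change of -1.21 (SE 0.16, adjusted p = 1.03e-04). Usp17le was at 27.4 and 23.0 CPM in control and 14.3 and 8.29 CPM in MERVL-KD embryos (log2 fold change -1.07, SE 0.22, adjusted p = 0.00503). The second MERVL-KD library was the lower, and the groups did not overlap. Neither call at 2-fold held in each setting. The log2 fold change of Tdpoz2 was -0.98 without the first MERVL-KD library, and that of Usp17le was -0.94 without the first control and -0.74 without the second MERVL-KD library, while with all 12 libraries in the fit Usp17le had an adjusted p of 0.0818.

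The other deubiquitinating enzyme genes of the family were lower by less. Usp17ld was at 42.6 and 39.5 CPM in control and 20.7 and 22.6 CPM in MERVL-KD embryos (log2 fold change -0.84, SE 0.13, adjusted p = 4.02e-04). Usp17lc was at 179 and 199 CPM against 106 and 123 CPM (log2 fold change -0.64, SE 0.10, adjusted p = 3.08e-04). These 2 genes are 98.4% identical in coding sequence, so reads of their shared parts are not counted in either. Usp17lb was at 112 and 124 CPM against 85.5 and 85.3 CPM (log2 fold change -0.39, SE 0.09, adjusted p = 0.0102). Usp17la, at 34.7 and 24.2 CPM against 21.6 and 20.7 CPM, did not pass (log2 fold change -0.39, SE 0.17, adjusted p = 0.145). With all 12 libraries in the fit, Usp17ld, Usp17lc and Usp17lb did not pass either, with adjusted p-values of 0.515, 0.501 and 0.737 at log2 fold changes of -0.92, -0.72 and -0.47. Usp17lb also had an adjusted p of 0.0686 without the second control library.

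Among the other Tdpoz members, Tdpoz1 was at 68.7 and 89.3 CPM in control and at 47.2 and 54.3 CPM in MERVL-KD 2-cell embryos (log2 fold change -0.55, SE 0.12, adjusted p = 0.00708), and an adjusted p of 0.0702 without the second control library. Tdpoz4 was at 90.0 and 80.0 CPM against 61.3 and 67.7 CPM and did not pass (log2 fold change -0.32, SE 0.11, adjusted p = 0.0623). Tdpoz3 had overlapping groups, at 50.8 and 39.5 CPM against 28.1 and 40.5 CPM (log2 fold change -0.32, SE 0.17, adjusted p = 0.253). Tdpoz5 was at 0.957 and 1.07 CPM against 0.784 and 1.50 CPM (log2 fold change 0.24, SE 0.49, adjusted p = 0.813).

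These 2-cell differences were measured after TMM normalization, whose factors at that stage were 0.936 and 0.880 for control embryos, against 1.19 and 1.16 for MERVL-KD embryos. Scaled by library size alone, the median of all genes was 0.30 in place of 0.01 on the log2 scale, and 4 of the 6 members (Tdpoz2, Usp17le, Usp17ld and Usp17lc) passed the adjusted p threshold, with log2 fold changes of -0.92, -0.78, -0.55 and -0.35. The summed level of the oocyte and early embryo markers also differed between the groups, at 1898 and 1840 CPM in control and 1194 and 1288 CPM in MERVL-KD 2-cell libraries, and its part in the results was not tested.

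**Figure D5:**
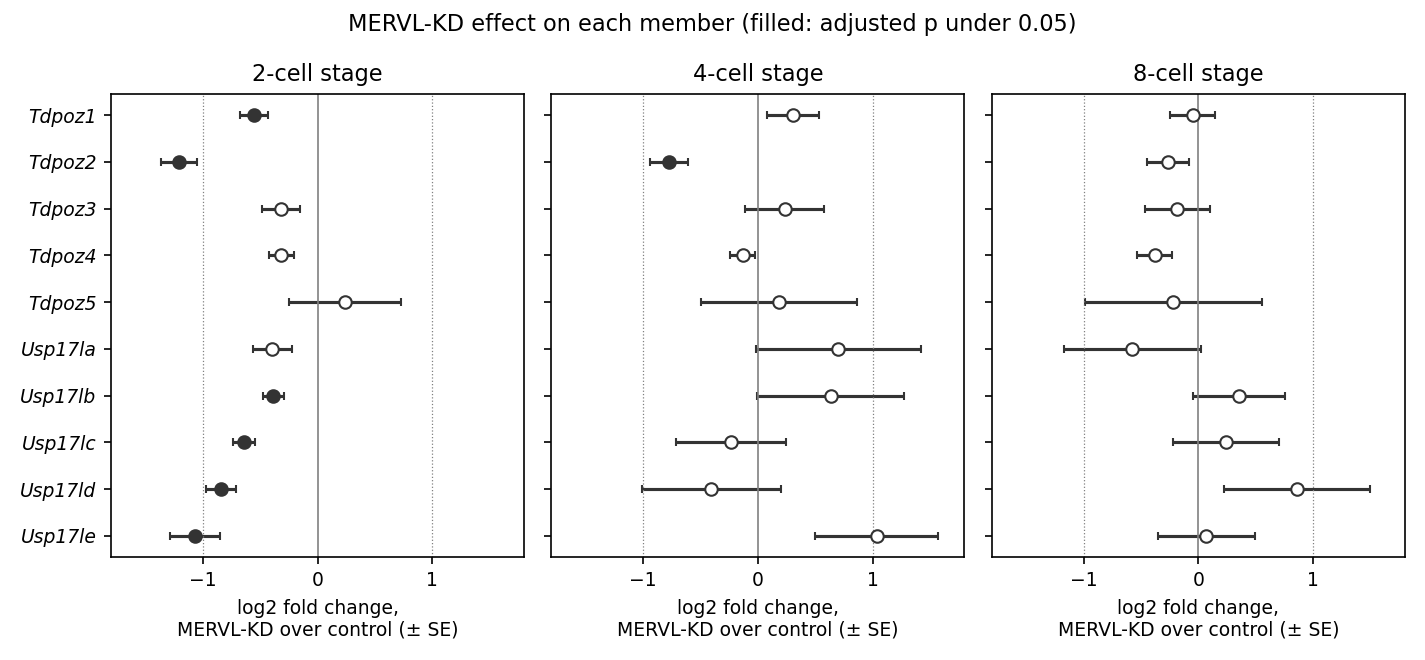
Points give the log2 fold change of MERVL-KD over control for each member at each stage with its SE (bars), filled where the adjusted p is under 0.05; dotted lines mark 2-fold. At the 2-cell stage 9 of 10 members are to the left of 0, and only Tdpoz2 is filled at the 4-cell stage and no member among the 8-cell points.

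At the 4-cell stage 0 of 10 members were called, where 4.54% of 19738 genes were called. An unadjusted p under 0.05 was found for 4948 of these genes and 1 member. That member was Tdpoz2, at 24.2 and 29.7 CPM in control and at 15.5 and 15.8 CPM in MERVL-KD embryos. Both MERVL-KD libraries were below both controls (log2 fold change -0.78, SE 0.16, adjusted p = 0.0113), by less than 2-fold. With single libraries left out this log2 fold change ran from -0.92 to -0.63, the latter without the second control library. Without the fold threshold Tdpoz2 was the 1 member lower, beside 5.84% of genes. DESeq2 also called 0 members at 2-fold, here and at the 8-cell stage.

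The Usp17l genes had spread out replicates at this stage. Usp17lb was at 10.2 and 2.15 CPM in control and 8.68 and 10.6 CPM in MERVL-KD 4-cell embryos, and the groups overlapped. Usp17le was at 2.13 and 0.834 CPM in control and at 4.28 and 1.81 CPM in MERVL-KD embryos (log2 fold change 1.03, SE 0.53, adjusted p = 0.262). Without the first control library, which was the higher for both genes, Usp17lb was called higher in MERVL-KD embryos with a log2 fold change of 2.16 (adjusted p = 2.42e-06), and so was Usp17le with 1.87 (adjusted p = 0.0245). Apart from Tdpoz2 and Usp17le, the log2 fold changes of the members at this stage ran from -0.41 (Usp17ld, SE 0.61) to 0.70 (Usp17la, SE 0.72), and those of Tdpoz1, Tdpoz3 and Tdpoz4 were 0.30, 0.23 and -0.13.

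At the 8-cell stage 0 of 10 members were called, where 1.70% of 18414 genes were called. An unadjusted p under 0.05 was found for 3582 of these genes and 1 member. That was Tdpoz4, at 77.2 and 79.7 CPM in control and at 49.1 and 70.6 CPM in MERVL-KD embryos, with a log2 fold change of -0.38 (SE 0.15, adjusted p = 0.191). Tdpoz2, at 39.1 and 32.0 CPM in control and 34.8 and 24.1 CPM in MERVL-KD embryos, now had overlapping groups (log2 fold change -0.26, SE 0.18, adjusted p = 0.485). The log2 fold changes of the other 8 members ran from -0.58 (Usp17la, SE 0.60) to 0.86 (Usp17ld, SE 0.64), with adjusted p-values of 0.520 or more.

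The difference of the MERVL-KD effect between stages was tested itself. From the 2-cell to the 8-cell stage the effect on Tdpoz2 moved up by 1.02 on the log2 scale (SE 0.27, adjusted p = 0.0342), 1 of 10 members, where 4.03% of genes passed. The adjusted p was 0.0664 without the first and 0.0909 without the second control 2-cell library, 0.167 without the first MERVL-KD 2-cell library, 0.163 without the second control 8-cell library and 0.160 without the first MERVL-KD 8-cell library. Between the 2-cell and the 4-cell stages 0 members passed, where 4.16% of genes did. Beside 4159 of 24040 genes, 2 members had an unadjusted p under 0.05. These were Usp17le with a difference of 2.18 (SE 0.59, adjusted p = 0.0503) and Tdpoz1 with 0.94 (SE 0.27, adjusted p = 0.0545), and DESeq2 passed 2 members. Between the 4-cell and the 8-cell stages 0 members passed, by DESeq2 as well, and 0.624% of genes did in edgeR. An unadjusted p under 0.05 was found for 0 members and 2748 of 24040 genes.

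The relatives of the Tdpoz members with MATH and BTB domains, 11 genes tested, were mostly highest at the 2-cell stage. In control embryos 7 of them were called lower and 1 higher at the 4-cell than at the 2-cell stage. Of all genes, 24.3% were called lower and 45.0% in either direction. Spopfm3 went from 25.1 and 24.2 CPM to 1.48 and 1.49 CPM (log2 fold change -4.05, SE 0.40, adjusted p = 8.17e-08) and Spopfm2 from 28.1 and 31.1 CPM to 3.46 and 3.02 CPM. Tdpoz6 was the gene called higher, at 5.23 and 5.31 CPM in 2-cell and 10.4 and 18.8 CPM in 4-cell embryos (log2 fold change 1.47, SE 0.24, adjusted p = 2.73e-05). Spop itself, the adaptor used in most tissues, was at 48.2 and 51.7 CPM and then at 58.1 and 71.8 CPM.

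By edgeR and by DESeq2, 0 of these 11 relatives were called in MERVL-KD embryos at any stage. In 2-cell, 4-cell and 8-cell embryos edgeR called 6.61%, 4.54% and 1.70% of all genes. At these stages 2, 0 and 0 relatives had an unadjusted p under 0.05 in edgeR. So had 5556 of 20604, 4948 of 19738 and 3582 of 18414 genes. The nearest at the 2-cell stage was Tdpoz8, at 85.0 and 80.6 CPM in control and at 40.4 and 53.7 CPM in MERVL-KD embryos (log2 fold change -0.73, SE 0.13, adjusted p = 0.00101), under the 2-fold limit. The median over the relatives was -0.10 on the log2 scale, against 0.01 over all genes.

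The CUL3 ligase and neddylation genes, which carry out and control ubiquitination with BTB adaptors, numbered 24. In MERVL-KD embryos 0 were called at any stage by edgeR or by DESeq2. Of all genes, edgeR called 6.61%, 4.54% and 1.70% in 2-cell, 4-cell and 8-cell embryos. At these stages 9, 7 and 5 of the 24 genes had an unadjusted p under 0.05 in edgeR. So had 5556 of 20604, 4948 of 19738 and 3582 of 18414 of all genes. The MERVL-KD effect differed between stages for 2 of the 24 genes, Cul3, the scaffold, and Dcun1d1, which aids its neddylation. Both passed from the 2-cell to the 4-cell stage, beside 4.16% of all genes. Both also passed from the 2-cell to the 8-cell stage, beside 4.03% of all genes. Between the 4-cell and the 8-cell stages 0 of the 24 passed, beside 0.624% of all genes. Cul3 had a log2 fold change of -0.92 in 2-cell (SE 0.08, adjusted p = 1.71e-06), -0.17 in 4-cell (adjusted p = 0.244) and 0.20 in 8-cell embryos (adjusted p = 0.292). The difference from the 2-cell to the 8-cell stage was 1.20 (SE 0.13, adjusted p = 1.66e-05).

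Of 50 other ubiquitin-specific proteases tested at the 2-cell stage, Usp9x and Usp9y were called lower and 0 were called higher in MERVL-KD embryos. Among all genes 2.24% were called lower and 6.61% in either direction. Usp9x had a log2 fold change of -1.06 (SE 0.10, adjusted p = 9.61e-06) and its effect differed from that at the 4-cell stage by 1.11 (SE 0.17, adjusted p = 7.05e-04). At the 4-cell stage Usp32 and Usp9y were called lower, and at the 8-cell stage Usp32 alone, with log2 fold changes of -1.46 and -1.41 for Usp32. Usp32 holds 1 site and Usp9y 2 sites of a MERVL ASO in the transcribed strand, with up to 2 mismatches and outside their exons, while Usp9x holds 0. No member of either family has such a site in its span. The nearest site to Usp17ld lay 12286 bases away, and 1.53% of 55254 genes were as near or nearer to a site. Tdpoz5 followed at 29818 bases (2.94% of genes), and the farthest member was Usp17la at 339889 bases (22.5% of genes).

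Among 13 regulators of the 2-cell stage, 10 were called lower and 2 higher from the control 2-cell to the 4-cell stage, where 24.3% of all genes were called lower and 45.0% in either direction. These 13 were picked for their part at the 2-cell stage, so this share in part follows from the choice. At the 2-cell stage 12 of them had an unadjusted p under 0.05 for MERVL-KD against control, where 5556 of 20604 genes had one. The median log2 fold change of the 13 was -0.61, against 0.01 over all genes and -0.47 over the members. In MERVL-KD embryos Zscan4c, a telomere regulator of the 2-cell stage, was called lower at the 2-cell stage (log2 fold change -1.47, SE 0.16, adjusted p = 1.93e-05) and Zfp352 at the 4-cell stage (log2 fold change -1.04, SE 0.27, adjusted p = 0.0317).

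Of 111 genes within 200 kb of a member, 29 were tested at the 2-cell stage and 2 were called lower in MERVL-KD embryos, where 2.24% of all genes were. At the 4-cell stage S100a10 was called higher in MERVL-KD embryos (log2 fold change 1.31, SE 0.38, adjusted p = 0.0492). From the control 2-cell to the 4-cell stage 19 of 35 neighbours tested were called lower and 6 higher, beside 24.3% of all genes lower, with a median log2 fold change of -2.75. The neighbours include relatives already counted above, such as Tdpoz6, Tdpoz7 and Tdpoz9, so they are not a separate set. Gm38207 was lower at all 3 stages, at 1.09 against 4.03 CPM in 2-cell, 1.54 against 8.23 CPM in 4-cell and 2.68 against 13.6 CPM in 8-cell embryos on average. Its log2 fold changes were -1.81, -2.40 and -2.33. The median of the tested neighbours at the 2-cell stage was -0.12 on the log2 scale.

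The genes most like each family over the libraries were sought among 24030 genes by Pearson's r of log2 CPM with the summed level of the family over 12 libraries. The points share their stage and library, so r is a description. The genes nearest the Tdpoz sum were Teddm2 (r = 0.980), Gm44183 (0.975), Gm23292 (0.974), Slc22a3 (0.974) and D030056L22Rik (0.972). Those nearest the Usp17l sum were Pdzrn3 (r = 0.994), Gm11841 (0.993), Sh3rf2 (0.992), Slc15a5 (0.992) and Pias1 (0.992). The r of Tdpoz4 and Tdpoz2 with the summed level of their own family was 0.360 and 0.419, while each Usp17l member had an r of 0.961 or more with its own sum.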

How the data were processed

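Stranded, paired-end total RNA-seq of 12 libraries was analysed. The ATAC-seq libraries were not analysed here. The authors aligned reads with STAR 2.5.3a (version from the submitters' processing notes) to GRCm38, retained unique alignments and, with featureCounts, deposited raw counts for GENCODE genes and for RepeatMasker families. Most low counts were even (71.8% to 74.7% of genes with 1 to 50 counts), so mates were mostly counted apart and counts overstate the fragments. The libraries had no molecular identifiers. The SE and p-values of the fits include the variation between replicates as well as counting error.

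From these counts, edgeR 4.0.16 (R 4.3.3, filterByExpr, TMM, robust quasi-likelihood) tested MERVL-KD against control in the 4 libraries of each stage, and stage contrasts and their differences in a fit of all 12. Adjusted p is Benjamini-Hochberg over genes and repeat families. A call needed an adjusted p below 0.05 and 2-fold, and for differences between stages only the former. CPM use TMM factors of all 12 libraries. Likeness and pairing used log2(CPM + 0.5).

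Sequences were compared with MAFFT 7.526 and GRCm38. Same-numbered replicates deviated together with r of -0.04, 0.01 and 0.03 at the 2-cell, 4-cell and 8-cell stages, so the numbers do not pair the samples. In no group did the replicates agree within sampling noise (chi-square per degree of freedom 12.9 to 22.6). The script was tested on simulated counts. The members and lists were chosen with earlier results of these data known. The members are all named, and other genes only by likeness, by being called in a list, or as relatives of the members, of which Spop, Tdpoz8, Cul3 and the uncalled values were named after their values were seen. Alternatives were DESeq2 1.42.0, other scalings, filters and fits, halved counts, a replicate block and each library left out.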

Additional observations from a re-analysis of the deposited data

Results flagged for a closer look

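The effect of MERVL-KD on Tdpoz2 differed between the 2-cell and the 8-cell stages by 1.02 on the log2 scale (SE 0.27, adjusted p = 0.0342, edgeR), from -1.21 at the 2-cell stage to -0.26 at the 8-cell stage in the fits of each stage. The adjusted p was over 0.05 with library size alone (0.112, difference 0.79) and without single libraries of the 2-cell and 8-cell groups.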

How the results depend on the processing

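The 7 members called lower from the control 2-cell to the 4-cell stage were called under every alternative run for that comparison. Calls at 2-fold of single members in MERVL-KD embryos are near their limits with 2 libraries a group. The cause of the changes below was not tested. With library size alone, 0 members were called lower at the 2-cell stage and 0 in the difference from the 2-cell to the 8-cell stage, and Tdpoz1 at the 8-cell stage had 0.087 in place of -0.05. With all 12 libraries in the fit, 1 member was called lower at the 2-cell stage, and of the 6 members that passed without the fold threshold Tdpoz2 and Tdpoz1 passed. Without the fold threshold 6 members were lower in 2-cell and 1 in 4-cell embryos, and 1 was higher from the 4-cell to the 8-cell stage in control and 1 in MERVL-KD embryos. In the fit of the 4 libraries compared, 1 member was called lower from the 4-cell to the 8-cell stage in control and 1 in MERVL-KD embryos, the latter also 1 in the non-robust fit. In the difference from the 2-cell to the 4-cell stage, 2 members were called with DESeq2, with its size factors, with at least 1 count and with counts halved, and 1 in the non-robust fit or when each library needed 10 counts. Tdpoz4 from the control 2-cell to the 4-cell stage had -0.037 with DESeq2 and with its size factors and -0.047 when each library needed 10 counts.

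With the replicate number as a block, 1 member was called in the difference from the 2-cell to the 4-cell stage (Usp17le, 2.24, adjusted p = 0.00325) in place of 0, and no other count of called members moved by over 1.5 times. The samples share only a number, so the block pairs nothing known.

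With each library left out in turn (edgeR, the lone library assumed to vary like the others), the members called lower at the 2-cell stage ranged from 1 to 2 and those called higher at the 4-cell stage from 0 to 2. The members called in the differences ranged from 0 to 2 (2-cell to 4-cell, higher), 0 to 1 (2-cell to 8-cell, higher) and 0 to 1 (4-cell to 8-cell, lower). From the 4-cell to the 8-cell stage they ranged from 0 to 1 lower in control, and from 0 to 1 higher and 0 to 1 lower in MERVL-KD embryos. Directions that turned were those of members that had not passed: Tdpoz5 at the 2-cell stage (-0.29 to 0.63), Tdpoz3 (-0.19 to 0.81), Usp17la (-1.24 to 1.50), Usp17lb (-0.081 to 2.16), Usp17lc (-1.26 to 0.35) and Usp17ld (-1.08 to 0.90) at the 4-cell stage, Tdpoz1 (-0.25 to 0.13), Usp17la (-1.02 to 0.062), Usp17lb (-0.10 to 1.02), Usp17lc (-0.64 to 0.79) and Usp17le (-0.23 to 0.31) at the 8-cell stage, and Tdpoz4 from the control 2-cell to the 4-cell stage (-0.063 to 0.079).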
